A study of Caenorhabditis elegans with 2 samples.

Results

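Chromosome X of Caenorhabditis elegans held 955 regions at gene starts in the pooled list of regions called for NHR-77, a nuclear hormone receptor. A region was a member when its summit, the base of highest signal, lay within 500 bp of the annotated 5′ end of at least 1 protein-coding gene. The 955 made up 17.9% of the 5337 regions on X in the pooled list (95% confidence interval 16.9 to 18.95%) and belonged to a list of 30000 regions in all. The choice used position only, not signal. The intervals given here are exact Clopper-Pearson intervals at 95% that cover counting error only, and regions of 1 list are not replicates of a condition.

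Chromatin immunoprecipitation and sequencing (ChIP-seq) was done on whole L2 larvae, males and females pooled. The larvae came from strain OP353, whose genotype is unc-119(tm4063) III; wgIs353, so both samples carried the unc-119 mutation and the integrated transgene for NHR-77 fused to eGFP. There was 1 group of 2 biological replicates and no comparison group, so the values below describe regions within the lists. The promoter that drives the fusion was not given in the labels, and a signal from whole animals does not tell which cells it came from. The antibody is listed in the labels under the name of NHR-77. The pooled list, on genome build ce11, gave each region a signal value, the authors' own peak score, from 5.72 to 244.8 with a median of 7.98. The authors' list past their reproducibility threshold was the 415 highest pooled regions, and "past the threshold" below means membership of it. The replicates' own lists held 23233 nuclear regions in replicate 1 and 30000 in replicate 2, and the depth in reads is unknown from these files. Signal values were not compared in size between lists, so each region is given by its rank in each list, with 1 as the highest.

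Nuclear hormone receptors are transcription factors with a zinc finger DNA-binding domain and, in most members, a pocket for a small ligand, and nematodes have an unusually large family of them. A gene start with open chromatin gives signal in ChIP-seq for many factors, and some worm promoters are occupied by most factors that have been mapped. X in worms is also bound by the dosage compensation complex, which lowers expression from X in hermaphrodites and is recruited at a DNA motif named MEX.

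To show what lay under the summits, windows of 101 bp centred on the summit are given for 10 of the members past the threshold: the 5 members that were highest in the pooled list, a pair with the motif GAGAGA at 2 places each (dpy-23 and bet-2), a pair with the palindrome CACGTG (epg-7 and R04E5.9), and lpr-6, the lowest member past the threshold. Capitals mark any of the 10 motifs that were searched, on either strand, so TCTCTC is GAGAGA on the other strand. All are from the plus strand of the RefSeq genome WBcel235, the assembly of ce11, and none overlaps an exon of a protein-coding gene. The windows lie at chrX:15841224-15841324 (serp-1.1), chrX:2242947-2243047 (rpl-11.2), chrX:5841255-5841355 (puf-9), chrX:768213-768313 (trap-2), chrX:6092135-6092235 (hsp-3), chrX:4388952-4389052 (dpy-23), chrX:10568883-10568983 (bet-2), chrX:7334524-7334624 (epg-7), chrX:8811222-8811322 (R04E5.9) and chrX:11059853-11059953 (lpr-6).
serp-1.1: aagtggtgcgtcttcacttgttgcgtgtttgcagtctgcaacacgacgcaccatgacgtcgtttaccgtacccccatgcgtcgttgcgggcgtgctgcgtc
rpl-11.2: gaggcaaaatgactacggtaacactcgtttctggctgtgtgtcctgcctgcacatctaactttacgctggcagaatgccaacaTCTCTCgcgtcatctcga
puf-9: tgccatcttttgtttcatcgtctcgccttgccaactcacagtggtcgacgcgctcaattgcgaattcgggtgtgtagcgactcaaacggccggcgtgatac
trap-2: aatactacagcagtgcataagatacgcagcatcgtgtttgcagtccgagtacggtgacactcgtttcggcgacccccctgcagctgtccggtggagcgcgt
hsp-3: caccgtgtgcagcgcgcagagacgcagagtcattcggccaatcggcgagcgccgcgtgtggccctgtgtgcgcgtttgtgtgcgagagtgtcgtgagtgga
dpy-23: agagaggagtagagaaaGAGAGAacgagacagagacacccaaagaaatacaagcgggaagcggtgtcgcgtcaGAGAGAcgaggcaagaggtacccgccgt
bet-2: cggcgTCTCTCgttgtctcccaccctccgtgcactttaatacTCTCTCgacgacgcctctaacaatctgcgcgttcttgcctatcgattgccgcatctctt
epg-7: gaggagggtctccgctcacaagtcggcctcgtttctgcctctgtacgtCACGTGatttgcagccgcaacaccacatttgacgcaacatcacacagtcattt
R04E5.9: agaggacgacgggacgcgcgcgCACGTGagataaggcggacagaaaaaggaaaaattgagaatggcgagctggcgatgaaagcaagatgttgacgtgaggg
lpr-6: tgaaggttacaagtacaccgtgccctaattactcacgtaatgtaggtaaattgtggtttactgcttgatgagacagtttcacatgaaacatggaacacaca

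The GC content of these windows ran from 65.3% at hsp-3 down to 39.6% at lpr-6. The hsp-3 window held 14 CG dinucleotides and the lpr-6 window 2. No nuclear receptor half-site AGGTCA or AGTTCA fell inside any of the 10 windows shown.

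By rank, members stood above X regions away from gene starts and near gene starts on the autosomes. Of the 955 members, 28 were past the threshold, which is 2.93% (1.96 to 4.21%), against 1.38% of all pooled regions. Of 4382 X regions away from gene starts, 61 were past it, or 1.39% (1.07 to 1.78%). Of 5816 autosomal regions at gene starts, 213 were past it, or 3.66% (3.19 to 4.18%). The interval of the members overlapped that of autosomal gene starts and lay above that of X regions away from gene starts. The median signal value was 8.35 over the members, 7.97 over X regions away from gene starts and 8.40 over autosomal gene starts. The median pooled rank was 13288 for the members, 15060.5 for X regions away from gene starts and 13070 for autosomal gene starts. Most members, 570 of 955, ranked beyond 10000, and a small upper tail stood above them.

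The top of the list held few members. No member was among the 25 highest pooled regions, which held 16 X regions away from gene starts and 9 autosomal gene starts. Among the 100 highest were 5 members, 24 X regions away from gene starts and 54 autosomal gene starts. Of the 28 members past the threshold 8 were in its upper part, the 207 highest pooled regions, or 0.838% of the members (0.362 to 1.64%). X regions away from gene starts had 37 there, or 0.844% (0.595 to 1.16%), so with this stricter limit the members no longer stood above them. Autosomal gene starts had 115 there, or 1.98% (1.64 to 2.37%), an interval that met that of the members at its edge. Lower in the list the shares came together: 15.9% of members and 16.8% of autosomal gene starts were among the 3000 highest, and 40.3% of members and 40.4% of autosomal gene starts among the 10000 highest.

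X supplied 955 of the 6771 pooled regions at gene starts, or 14.1%, and 28 of the 241 past the threshold, or 11.6% (7.86 to 16.35%). X carries 2731 of the 19973 annotated protein-coding genes, or 13.7%, which is within the second interval. Among the 207 highest pooled regions, X supplied 8 of the 123 at gene starts, or 6.504% (2.85 to 12.4%), an interval that lies below that share of genes. By chromosome, the share of gene-start regions past the threshold was 2.93% on X, 2.32% on V, 3.44% on I, 3.76% on IV, 4.63% on III and 4.68% on II. X thus stood between V and I, and these neighbouring intervals overlapped. The best pooled rank at a gene start was 35 on X and 36 on I, against 5 on III and 6 on II.

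The same order of the kinds of region held in both replicate lists. In replicate 1 the list held 740 X gene-start regions, of which 21 were among its 415 highest, or 2.84% (1.77 to 4.31%), against 1.79% of all its regions. There, X regions away from gene starts had 2.00% and autosomal gene starts 4.17%. In replicate 2 the list held 957 X gene-start regions, of which 29 were among its 415 highest, or 3.03% (2.04 to 4.32%), against 1.38% of all its regions. There, X regions away from gene starts had 1.33% and autosomal gene starts 3.58%. The interval of X gene starts in replicate 1 overlapped that of X regions away from gene starts, and in replicate 2 it did not. The best rank of an X gene start was 34 in both replicates.

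**Figure D1:**
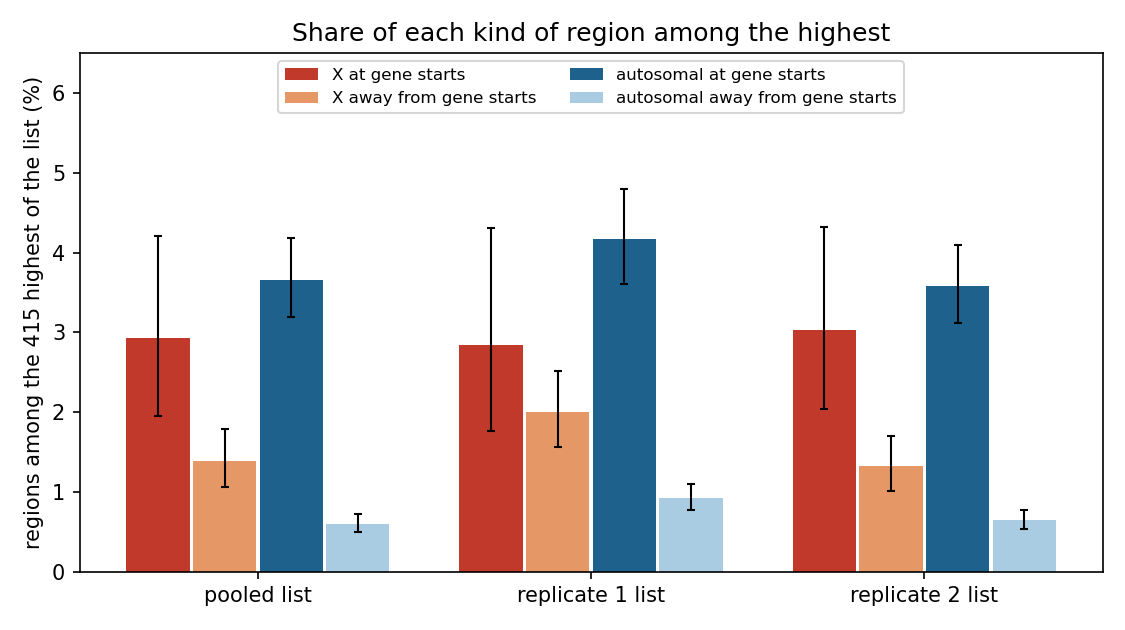
Percent of each kind of region among the 415 highest of the pooled list and of each replicate's own list, with X at gene starts first and exact 95% intervals as bars. In all 3 lists X gene starts (2.93, 2.84 and 3.03%) stood above X regions away from gene starts (1.39, 2.00 and 1.33%) and below autosomal gene starts (3.66, 4.17 and 3.58%).

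The 28 members past the threshold lay at 32 genes, 4 of them at a pair of genes on opposite strands. Their signal values had a median of 33.7 (interquartile range 30.5 to 39.2) and their pooled ranks a median of 252.5. The highest 5 were near the top of all 3 lists. The region at serp-1.1 (WBGene00010337), chrX:15841109-15841438, ranked 35 in the pooled list with a signal value of 89.4, 34 in replicate 1 and 34 in replicate 2. It was nonetheless only the 18th region on X, as 17 X regions away from gene starts stood above it. The region at rpl-11.2 (WBGene00004423), chrX:2242832-2243161, ranked 46 in the pooled list with a signal value of 73.3, 71 in replicate 1 and 49 in replicate 2. The region at puf-9 (WBGene00004245), chrX:5841140-5841469, ranked 55 in the pooled list with a signal value of 65.4, 35 in replicate 1 and 72 in replicate 2. Their summits lay 298, 379 and 287 bp upstream of the annotated starts of serp-1.1, rpl-11.2 and puf-9.

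The genes of the other members are taken by role, a grouping made after their values were seen and not tested. The first group belongs to the secretory pathway, in which new proteins are folded, given sugars and exported. The region at hsp-3 (WBGene00002007), which encodes an Hsp70 chaperone of the endoplasmic reticulum, chrX:6092020-6092349, ranked 95 in the pooled list with a signal value of 49.7, and it was the 6th X gene start of replicate 1 and the 4th of replicate 2. The region between trap-2 (WBGene00020216), a subunit of the translocon-associated protein complex, and ile-2, an intracellular lectin, chrX:768098-768427, ranked 78 in the pooled list with a signal value of 53.1, 81 in replicate 1 and 108 in replicate 2. These genes point away from each other, and the summit lay 194 bp upstream of trap-2 and 333 bp upstream of ile-2. Both regions stood near the top of the X gene starts in all 3 lists. At hst-2, which encodes a heparan sulfate 2-O-sulfotransferase, the region was the 6th member in the pooled list with a signal value of 48.0, ranked 201 in replicate 1 and was the 6th X gene start of replicate 2, with the summit 29 bp upstream. At mans-3, named as an alpha-mannosidase, the ranks were 220 in the pooled list, 186 in replicate 1 and 216 in replicate 2.

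Of other genes of that pathway, pdi-6, uggt-1 and sec-3 had regions that were high in replicate 2 and far lower in replicate 1. At pdi-6, a protein disulfide isomerase, the region ranked 237 in the pooled list, 1582 in replicate 1 and 180 in replicate 2, and its summit was 4 bp from the start. At uggt-1, a glucosyltransferase that marks misfolded glycoproteins, it ranked 231 in the pooled list, 1506 in replicate 1 and 192 in replicate 2. At sec-3, a subunit of the exocyst that tethers secretory vesicles, it ranked 329 in the pooled list, 2665 in replicate 1 and 358 in replicate 2. Another exocyst gene, sec-15, shared a region with C28G1.2 that ranked 264 in the pooled list, 181 in replicate 1 and 343 in replicate 2. That region was the only member past the threshold whose summit lay downstream of the nearest start, 47 bp inside the 5′ UTR of C28G1.2, and a tRNA gene lay 50 bp away. Which of the 3 genes the signal belongs to cannot be told apart.

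Genes of membrane traffic and autophagy were also served. At dpy-23, the medium subunit of the AP-2 clathrin adaptor, the region ranked 214 in the pooled list, 165 in replicate 1 and 256 in replicate 2. At epg-7, a scaffold protein of selective autophagy, it ranked 137 in the pooled list, 262 in replicate 1 and 144 in replicate 2. At vha-12, a subunit of the vacuolar proton pump, it ranked 348 in the pooled list, 1441 in replicate 1 and 398 in replicate 2. The first pair stood among the 415 highest of both replicates, and vha-12 only among those of replicate 2.

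Genes of protein synthesis and energy supply followed. X carries few of them, and rpl-11.2, a protein of the large ribosomal subunit, was described above. At eef-1A.2, a translation elongation factor, the region ranked 282 in the pooled list, 289 in replicate 1 and 268 in replicate 2. At asg-2, a subunit of the mitochondrial ATP synthase, it ranked 332 in the pooled list, 343 in replicate 1 and 327 in replicate 2. Those 2 regions kept nearly the same rank in all 3 lists. The asg-2 region lay 226 bp upstream of that gene and 312 bp upstream of glr-6, a glutamate receptor gene that points the other way.

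Among genes of RNA and gene regulation, puf-9, which encodes an RNA-binding protein of the Pumilio family, had the highest region. At bet-2, a bromodomain protein of the BET family, the region ranked 300 in the pooled list, 197 in replicate 1 and 512 in replicate 2. At zfp-3, named as a zinc finger protein, it ranked 272 in the pooled list and 194 in replicate 2, and no region of replicate 1 overlapped it. Outside that role, at syd-2, the worm liprin-alpha of presynaptic sites, the region ranked 337 in the pooled list and 167 in replicate 2. Replicate 1 had no summit within 100 bp of it, with an overlapping region at rank 20333. The last pair was thus carried by replicate 2.

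The remaining named genes were acl-1, an acyltransferase-like gene, sym-4, and lpr-6, a lipocalin-related gene. The acl-1 region ranked 278 in the pooled list, 2531 in replicate 1 and 233 in replicate 2. The sym-4 region ranked 279 in the pooled list and 163 in replicate 2, and in replicate 1 it overlapped a region at rank 572 whose summit was over 100 bp away. The lpr-6 region, the lowest of the 28, ranked 401 in the pooled list, 5526 in replicate 1 and 503 in replicate 2. It was past the threshold in the pooled list without being among the 415 highest of either replicate.

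The last 6 regions lay at genes known only by sequence names. C27C12.4, head to head with C27C12.1, had a region that ranked 241 in the pooled list, 97 in replicate 1 and 710 in replicate 2, so that, as at bet-2, only replicate 1 had it among its 415 highest. The C18B2.4 region ranked 227 in the pooled list, 4526 in replicate 1 and 184 in replicate 2. The F55G7.1 region ranked 304 in the pooled list, 7934 in replicate 1 and 254 in replicate 2. Those at C18B2.4 and F55G7.1 were high in replicate 2 alone. The F17E5.2 region ranked 200 in the pooled list and 131 in replicate 2, and in replicate 1 it overlapped a region at rank 539. The R04E5.9 region ranked 380 in the pooled list and 524 in replicate 2, and in replicate 1 it overlapped a region at rank 2562. The ZC506.1 region ranked 317 in the pooled list, and regions overlapping it ranked 3403 in replicate 1 and 299 in replicate 2, with summits over 100 bp from the pooled one.

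**Figure D2:**
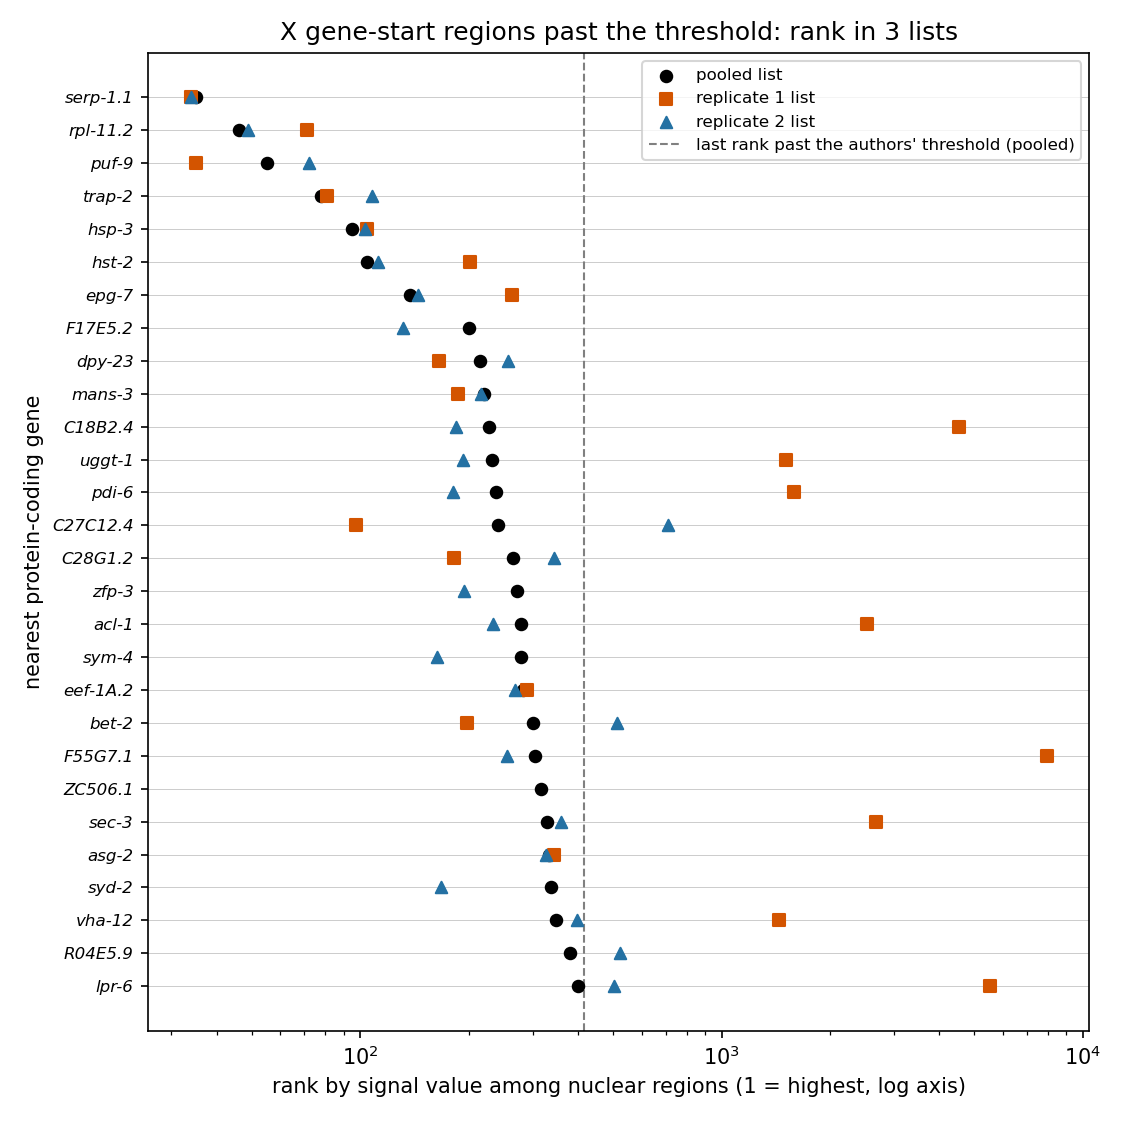
Rank by signal value (log axis, 1 is the highest) of the 28 members past the threshold in the pooled list, replicate 1 and replicate 2, named by the nearest gene, with the dashed line at rank 415. A marker is missing where a replicate had no summit within 100 bp, and for instance at serp-1.1 (35, 34 and 34), and at trap-2 (78, 81 and 108) the 3 ranks lie close together, while at F55G7.1 they are 304, 7934 and 254.

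Replicate 2 accounted for more of the members past the threshold than replicate 1, as it did for X regions away from gene starts and autosomal gene starts. Of the 28, 12 were among the 415 highest of each replicate, counted by a summit within 100 bp. A further 11 were there in replicate 2 but not in replicate 1, and 2, at C27C12.4 and bet-2, in replicate 1 but not in replicate 2. The other 3, at ZC506.1, R04E5.9 and lpr-6, had no such summit among the 415 highest of either, although a replicate 2 region at rank 299 overlapped the one at ZC506.1. That is 12 of 28 members, or 42.9%, against 32 of 61 X regions away from gene starts past the threshold, or 52.5%, and 97 of 213 autosomal gene starts past it, or 45.5%. Of those 61 X regions, 17 were among the 415 highest of replicate 2 only and 6 among those of replicate 1 only. Of those 213 autosomal gene starts, the counts were 79 and 19. A summit within 100 bp was found for 22 of the 28 members (78.6%) in replicate 1 and for 27 in replicate 2. In replicate 1 it was found for 83.6% of those X regions and 93.0% of those autosomal gene starts. Over all 955 members it was found for 262 (27.4%) in replicate 1, for 600 (62.8%) in replicate 2, for 136 (14.2%) in both and for 229 in neither. Over all 30000 pooled regions it was found for 24.8% in replicate 1, 60.2% in replicate 2 and 10.9% in both, and for 7771 in neither. Most members below the threshold were thus entries of 1 replicate or none, as were most regions of the whole list.

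Over the 136 members found in both replicates, Spearman's rho between the signal values of the replicates was 0.448 and Pearson's r of their log2 values 0.591. Over the 22 of them past the threshold rho was 0.446, and over the 114 below it 0.196. Over 922 autosomal gene starts found in both replicates rho was 0.495, and over 51 X regions away from gene starts past the threshold it was 0.755. These are descriptions across regions, which share a library within each list, and the pooled list that selected them holds the reads of both replicates.

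**Figure D3:**
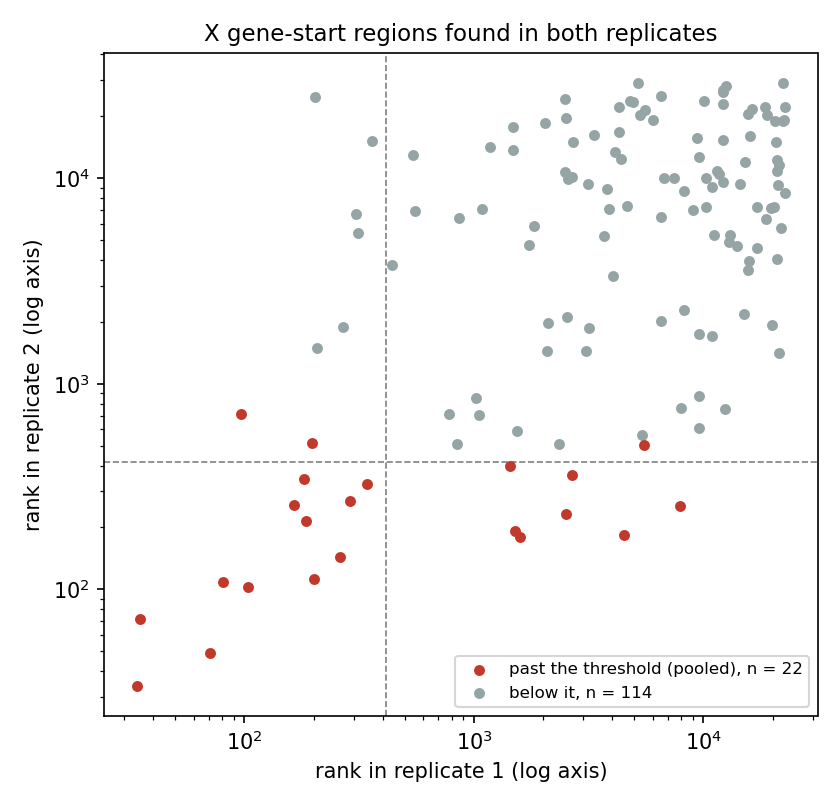
Rank in replicate 1 (x axis, log) against rank in replicate 2 (y axis, log) of the 136 members found in both, with the 22 past the pooled threshold in red, the 114 below it in grey and dashed lines at rank 415. The red points fall mostly below the horizontal line, and several lie far to the right of the vertical one.

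Each replicate also ranked X gene starts highly that the pooled list placed below its threshold or with a summit elsewhere. The genes in this paragraph, other than T14G11.1, egl-17, dyn-1 and ZC506.1, were named after their values were seen. In replicate 1 these were R07B1.6 (rank 204, pooled rank 1367), sor-3 (208, pooled 630), atf-6 (270, pooled 807), ppk-3 (305, pooled 758), gfi-3 (313, pooled 710) and C05G5.2 (359, pooled 1198). Of these, atf-6 encodes a transcription factor of the endoplasmic reticulum stress response. One more in replicate 1, at C34F6.11 (rank 168), overlapped a member at pooled rank 1459 whose summit was over 100 bp away. In replicate 2 they were T14G11.1 (rank 267, pooled rank 473), egl-17 (273, pooled 591), dyn-1 (331, pooled 525) and asb-2 (408, pooled 2240), and the region at ZC506.1 (299) overlapped the member at pooled rank 317, whose summit was over 100 bp away. A replicate 2 region at epn-1 (rank 178) matched a pooled region at rank 163 whose summit lay over 500 bp from the start. The split between the replicates was thus wide for single genes.

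The 10 members just below the threshold are given as a description. The first was at pkhm-2, rank 428 with a signal value of 26.8, against 27.4 at lpr-6. The next were at nas-10, an astacin-type metalloprotease gene (rank 472), T14G11.1 (473), nucb-1, a nucleobindin homologue (479), C03B1.13 (513), snrp-40.1, a component of the splicing machinery (515), F28C10.3 (518), dyn-1, the dynamin of endocytosis (525), sams-1, an S-adenosylmethionine synthetase (554), and egl-17, a fibroblast growth factor (591). None of the 10 was among the 415 highest of replicate 1, and T14G11.1 (267), egl-17 (273) and dyn-1 (331) were among those of replicate 2. At nas-10 and egl-17 a tRNA gene lay 18 and 3 bp from the summit.

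Members past the threshold lay almost entirely upstream of genes. The summit was upstream of the nearest start in 27 of 28 members past the threshold (96.4%), against 57.9% of the 927 below it and 200 of 213 autosomal gene starts past it (93.9%). The median position was 209 bp upstream in members past the threshold and 70 bp upstream in members below it, and it was 181 bp upstream in autosomal gene starts past it. Of the 564 upstream members 4.79% were past the threshold (3.18 to 6.89%), and of the 391 at or downstream of the start 0.256%. By bins of 100 bp, 8 of 107 members between 400 and 300 bp upstream were past the threshold (7.48%, 3.28 to 14.2%), and 7 of 131 between 200 and 100 bp upstream (5.34%, 2.18 to 10.7%). On the autosomes the highest share was between 300 and 200 bp upstream, with 63 of 694 past it (9.08%). With 28 members past the threshold the X bins hold 0 to 8 each, and their intervals overlap from 400 bp upstream to the start.

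**Figure D4:**
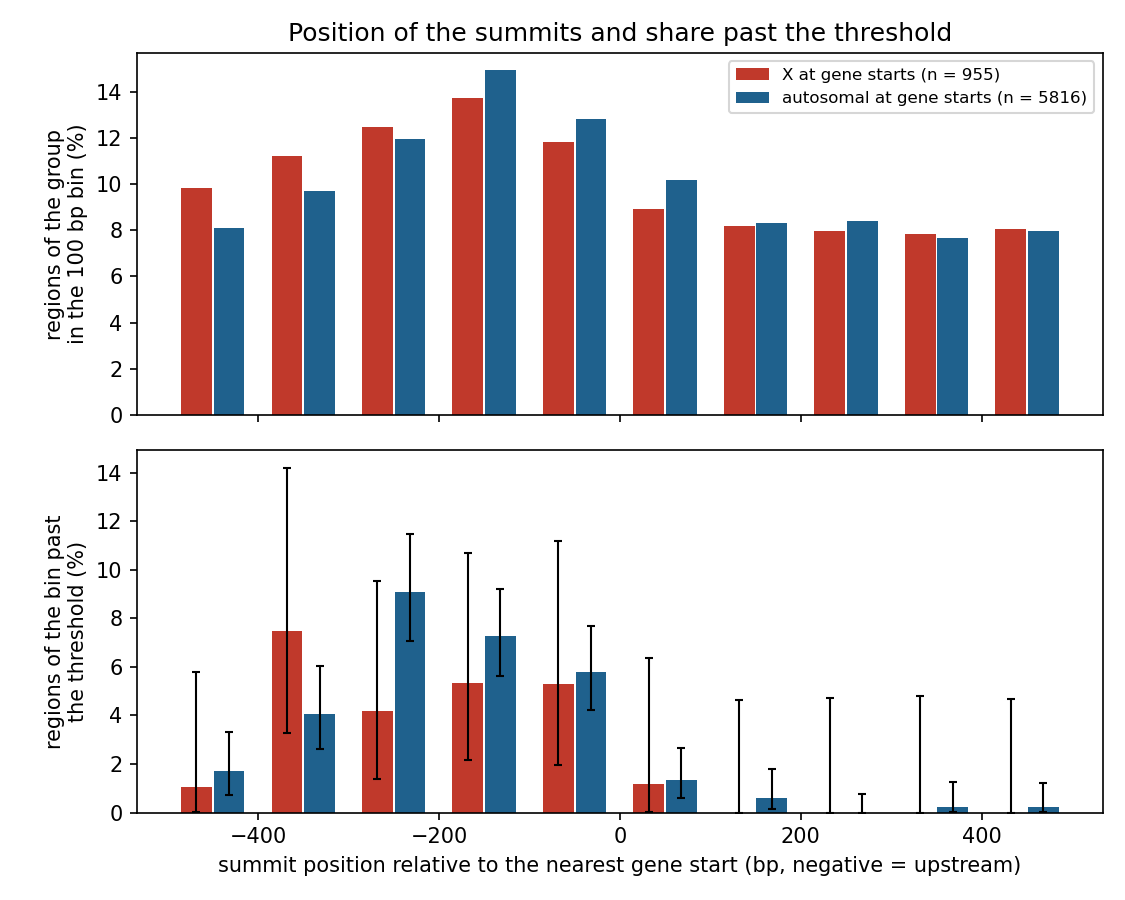
Summit position relative to the nearest gene start in bins of 100 bp (x axis, negative is upstream) for 955 X and 5816 autosomal regions at gene starts, as the percent of the group in each bin (upper panel) and the percent of the bin past the threshold with exact 95% intervals (lower panel). Summits are spread over both sides of the start, while those past the threshold lie upstream, up to 7.48% of a bin on X and 9.08% on the autosomes.

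Of the 28 members past the threshold 27 were intergenic with respect to protein-coding genes and 1 lay in a 5′ UTR. Intergenic too were 187 of 213 autosomal gene starts past it (87.8%) and 48 of 61 X regions away from gene starts past it (78.7%). Of all 955 members, 521 were intergenic (54.6%), 203 in introns, 162 in coding sequence, 53 in 5′ UTRs and 16 in 3′ UTRs. None of the 162 in coding sequence or the 203 in introns was past the threshold, which allows a share of up to 2.25% in coding sequence and 1.80% in introns as upper bounds of the intervals. Intergenic members were past it in 5.18% of cases (3.44 to 7.45%). Of autosomal gene starts, 2 of 1165 in coding sequence (0.172%) and 12 of 1170 in introns (1.03%) were past it. Of those that were intergenic, 187 of 2878 were past it (6.498%). Each autosomal share lay within the interval of the members of the same class, so no difference between X and the autosomes can be read here.

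Few X members lay between head-to-head genes. There were 24 of them, 2.51% of members, against 556 autosomal gene starts of that kind, or 9.56%. They were past the threshold in 4 of 24 cases on X (16.7%, 4.74 to 37.4%) and in 65 of 556 on the autosomes (11.7%, 9.14 to 14.7%). For members at starts on 1 strand only the share was 24 of 929 (2.58%, 1.66 to 3.82%), against 146 of 5231 on the autosomes (2.79%, 2.36 to 3.27%). Within each arrangement, the X and autosomal intervals overlapped. A gene on the same strand that ended within 500 bp before the start was present for 110 members (11.5%) and for 1410 autosomal gene starts (24.2%). How often all annotated gene starts on X and on the autosomes lie in these arrangements is not given here.

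GC content moved with the signal among the members. In 200 bp centred on the summit it was 48.9 ± 6.59% in the 28 members past the threshold (SD over regions) and 36.65 ± 7.29% in the 927 below it. In autosomal gene starts past the threshold it was 41.6 ± 6.30% (n = 213), and in X regions away from gene starts past it 43.75 ± 7.18% (n = 61). The mean fell by steps down the ranks, with 50.6% in the 8 members at ranks 1 to 207, 48.2% in the 20 at ranks 208 to 415, 43.97% in the 34 at ranks 416 to 1000, 37.9% in the 90 at ranks 1001 to 3000 and 35.8% in the 570 beyond rank 10000. The autosomal gene starts ran over a narrower range, with 42.6% at ranks 1 to 207 and 34.8% beyond rank 10000. CG dinucleotides numbered 12.96 ± 4.96 per window in members past the threshold and 6.62 ± 3.57 in those below it, close to 12.3 ± 4.23 in autosomal gene starts past it. The part of base composition in the signal was not tested.

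Read by GC content, the share past the threshold was 0 of 173 members under 30%, 0 of 218 from 30 to 35%, 3 of 239 from 35 to 40% (1.26%), 6 of 172 from 40 to 45% (3.49%) and 19 of 153 at 45% or more (12.4%, 7.64 to 18.7%). Autosomal gene starts at 45% or more were past it in 62 of 554 cases (11.2%, 8.69 to 14.1%), and those from 35 to 40% in 4.40%. X regions away from gene starts at 45% or more were past it in 6.13% of cases (4.04 to 8.86%). At the highest GC content X and autosomal gene starts thus had overlapping intervals, and from 30 to 35% autosomal gene starts had 22 of 1636 past it (1.34%, 0.845 to 2.03%), against the 0 of 218 members, which allows up to 1.68%. GC-rich regions were also more frequent among the members: 16.0% had 45% or more, against 9.68% of X regions away from gene starts and 9.53% of autosomal gene starts.

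**Figure D5:**
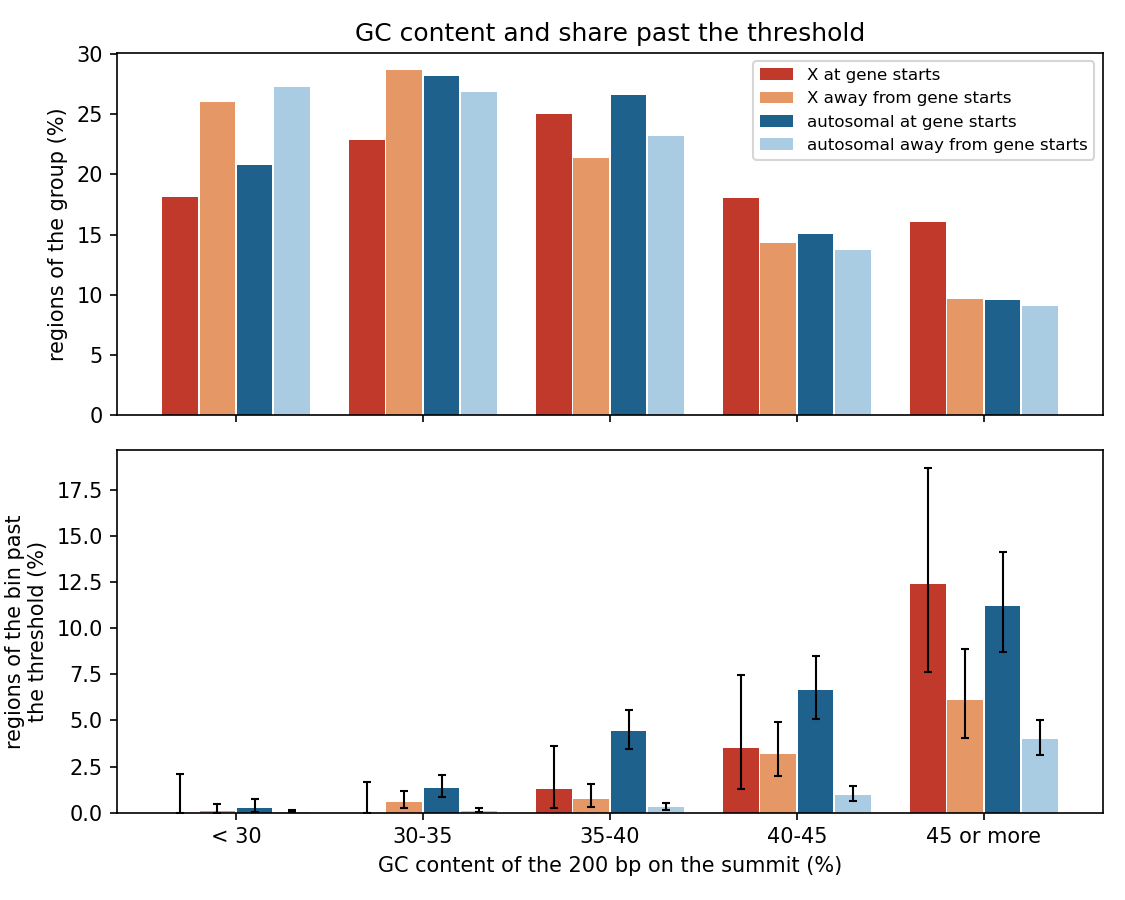
GC content of the 200 bp on the summit in 5 classes (x axis) for the 4 kinds of region, as the percent of the kind in each class (upper panel) and the percent of the class past the threshold with exact 95% intervals (lower panel). No X gene start under 35% was past the threshold, and 12.4% of those at 45% or more were, against 11.2% of autosomal gene starts.

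Short motifs were counted on both strands of the same 200 bp. A match is a description of the letters in the window and not a binding site. The GA repeat GAGAGA was in 13 of 28 members past the threshold (46.4%, 27.5 to 66.1%), 17.5% of those below it and 13.1% of all pooled windows. It was in 41.0% of X regions away from gene starts past the threshold and in 26.3% of autosomal gene starts past it (20.5 to 32.7%), an interval that overlaps that of the members. The nuclear receptor half-site AGGTCA was in 1 of 28 members past the threshold (3.57%), 6.47% of those below it and 4.86% of all pooled windows. The half-site AGTTCA was in 2 of 28 members past the threshold (7.14%), 12.2% of those below it and 12.6% of all pooled windows. Neither half-site was thus more frequent in the upper tail than in the list as a whole, as far as 28 windows tell.

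CACGTG was in 3 of 28 members past the threshold (10.7%, 2.27 to 28.2%), 3.34% of those below it and 3.23% of all pooled windows. CCGCCC was in 2 of 28 (7.14%), 3.45% of those below it and 3.64% of all pooled windows. TATAAA was in 3 of 28 members past the threshold (10.7%, 2.27 to 28.2%), 23.8% of those below it and 22.4% of all pooled windows. TGATAA was in 2 of 28 (7.14%, 0.877 to 23.5%), 21.04% of those below it and 18.5% of all pooled windows. For all 4 of these motifs the interval past the threshold held the shares below it and over all windows. TTTCAG, the end of worm introns, was in 1 of 28 members past the threshold (3.57%, 0.0904 to 18.3%), 28.5% of those below it and 35.4% of all pooled windows. GC content also differed between these sets of windows, and the part of base composition in the motif shares was not tested.

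The core of the MEX motif, GCGCAGGG, was in none of the 28 members past the threshold, with an upper bound of 12.3%. It was in 3 of the 955 members (0.314%, 0.0648 to 0.915%), against 0.411% of X regions away from gene starts and 0.113% of all pooled windows. Both of these shares lay within the interval of the members. Those 3 lay at egl-17 (pooled rank 591), gcc-1 (8579) and F56C3.7 (8739), and they were named for this motif after their values were seen. Among X regions away from gene starts past the threshold, it was in 14 of 61 (22.95%, 13.2 to 35.5%). The intervals of the members past the threshold and of X regions away from gene starts past it did not overlap.

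Genes for short RNAs lay within 500 bp of 26 members (2.72%). The share was 2.55% of all pooled regions, 2.25% of autosomal gene starts and 4.31% of X regions away from gene starts. Of the 26 members, 22 were near tRNA genes, 3 near snoRNA genes and 2 near miRNA genes. Among these, 1 member was near both a tRNA and a snoRNA gene. The median pooled rank was 4134.5 in these 26 and 13648 in the other 929. At autosomal gene starts it was likewise 5715 with such a gene nearby and 13203 without. Of the 28 members past the threshold 1 had such a gene nearby, at C28G1.2, against 11 of 61 X regions away from gene starts past it (18.03%) and 16 of 213 autosomal gene starts past it (7.51%). The tRNA marker GGTTCGA, the B box of tRNA genes, was in 0 of 28 members past the threshold, 2.48% of those below it and 1.86% of all pooled windows.

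By the genes they serve, 913 of the 2731 protein-coding genes on X had a member (33.4%), 32 had one past the threshold (1.17%) and 74 had more than 1 member. Members were spread along the chromosome, with 31.9 to 36.75 per 100 genes in the 5 equal parts of X. The members past the threshold numbered 4, 8, 8, 5 and 3 in these parts.

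Nuclear receptor genes, the family of NHR-77 itself, had a member at 11 of 27 X genes (40.7%) and none past the threshold, against 33.4% and 1.17% of all X genes. The highest was at nhr-32, with a pooled rank of 744 and rank 553 in replicate 2. The next were at nhr-3 (pooled rank 1906) and nhr-255 (3313), the last with a tRNA gene at its summit. The median rank of the list was 13293, close to 13288 over all members. Homeobox genes, another large class of regulators, had a member at 5 of 26 (19.2%), the highest at ceh-89 (pooled rank 2022), dsc-1 (9189) and ceh-39 (18003).

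Lists of nervous system genes had shares on both sides of the 33.4% of all X genes with a member, and 2 of their genes had one past the threshold, against 1.17% of all X genes. Neuropeptide and insulin genes had a member at 12 of 37 (32.4%), with the highest at nlp-6 (pooled rank 2065), flp-2 (8826) and nlp-14 (9291). Transmitter receptor genes had one at 14 of 41 (34.1%), with glr-6 (332) past the threshold and lgc-25 (1145) and lgc-15 (3307) next. Ion channel and gap junction genes had one at 8 of 33 (24.2%), led by the potassium channel gene kqt-2 (2925), then del-5 (8680) and kqt-1 (13426). Synapse genes had one at 2 of 5, syd-2 (337) and aex-3 (26845), and chemoreceptor genes at 6 of 28 (21.4%), led by srd-41 (5172), srd-38 (6646) and srv-5 (8008). Lists of this size hold too few genes to set their counts past the threshold against that share.

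Muscle genes had a member at 8 of 14 (57.1%), against 33.4% of all X genes, and none past the threshold, against 1.17%. With 14 genes, no difference from that share can be read. The highest were at act-4, an actin gene (pooled rank 711), mlc-2, a myosin light chain gene (2970), and dim-1 (8074), and the lowest at myo-2, the pharyngeal myosin gene (29871). Cuticle collagen genes had one at 10 of 30 (33.3%), led by dpy-3 (5306), col-176 (7448) and col-169 (9587).

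Housekeeping lists are short on X, and most of their genes had a member at the 500 bp limit, against 33.4% of all X genes. Ribosomal protein genes had one at 2 of 2, rpl-11.2 (pooled rank 46) and rpl-25.1 (2752), and vacuolar ATPase genes at 3 of 3, vha-12 (348), vha-15 (1810) and vha-20 (6832). Respiratory chain genes had one at 5 of 6, led by asg-2 (332), ucr-2.1 (966) and ucr-2.2 (2042), and chaperone genes at 4 of 5, led by hsp-3 (95), dnj-14 (2946) and hsp-25 (8082). Translation factor genes had one at 1 of 3, eef-1A.2 (282). Each of these 5 lists had 1 gene with a member past the threshold. With 2 to 6 genes a list, the counts are too small to set against 33.4% and 1.17% of all X genes. At a limit of 250 bp, no ribosomal protein or translation factor gene had a member. The respiratory chain list then had 3 such genes, chaperones 2 and vacuolar ATPase 2. X carried no gene of the lists of mitochondrial ribosomal proteins, the proteasome and splicing. The lists were drawn by gene name, and the splicing list did not take in snrp-40.1, the X gene described above.

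Lipid metabolism genes had a member at 6 of 16 (37.5%), led by dhs-25 (pooled rank 870), dhs-28 (2563) and acs-17 (7813). Detoxification genes had one at 4 of 14 (28.6%), led by gst-42 (6769), ugt-23 (23590) and cyp-14A1 (28126). Timing and molting genes had one at 2 of 6, lin-14 (5429), a regulator of larval timing, and nhr-25 (24986), and Wnt genes at 1 of 3, the beta-catenin gene bar-1 (6603). Genes of sex determination and dosage compensation had one at 2 of 7: sdc-2, which brings the dosage compensation complex to X (pooled rank 596, 812 in replicate 2), and ceh-39, a signal of X number (18003). None of these 5 lists, of 3 to 16 genes each, had a gene past the threshold, which cannot be told from the 1.17% of all X genes.

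At the edge of the choice, the 3 members nearest the limit had summits 499 bp from the starts of R07E3.7, cest-3 and gmap-1, with signal values of 6.73, 7.36 and 6.90. The 3 nearest X regions outside had summits 501 bp from cyp-14A4 and K04C1.2 and 502 bp from rgs-9, with signal values of 10.002, 9.61 and 7.30.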

How the data were processed

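The authors deposited ChIP-seq regions in narrowPeak lists, for each replicate and for both pooled; per the file headers and text files these came from alignments and a control, which was not analysed here. The measured value was the signal column, a score deposited by the authors. Its scale is not given in the sources used here, nor are the aligner and the peak caller. The fragments' size range was 150 to 350 bp, per the labels. The ce11 lists were used and the ce10 lists were not used here.

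Ranks were taken over nuclear regions, which leaves out 23 mitochondrial regions of replicate 1. Summits were matched between lists within 100 bp. Annotation was that of Ensembl release 115. Bases were read from RefSeq's WBcel235, with positions counted from 1. GC content and 10 motifs were read from 200 bp on the summit. Counts, shares, medians and exact 95% intervals were computed with Python 3.11.15, numpy 2.4.6, pandas 2.3.3, scipy 1.17.1 and matplotlib 3.10.9, and the functions were tested on simulated data. No test was made, since there was 1 group of 2 samples.

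Named genes were those within 500 bp of a summit past the threshold, those of the 10 next members, up to 3 of each of 22 gene lists, and those at the 500 bp limit; myo-2 was added, and genes were grouped by role, after their values were seen. The members and lists were chosen with earlier results of these data known. Alternatives were other distances, midpoints, transcript starts, merged entries, a stricter threshold, single replicates, other summit matches and other windows.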

Additional observations from a re-analysis of the deposited data

How the results depend on the processing

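The distance to the gene start set the number of members, 506 at 250 bp and 1728 at 1000 bp against 955, while 3.16% and 2.26% of them were past the threshold against 2.93%. With only the upper 207 thresholded regions, 0.838% of members were past it, against 0.844% of X regions away from gene starts, and X made up 6.504% of such gene starts, against 11.6%. The share of head-to-head members was 0.988% at 250 bp, against 2.51% at 500 bp, and that of upstream members 54.7% at 1000 bp, against 59.1% at 500 bp. Leaving out a replicate gave 740 to 957 members, 2.84 to 3.03% of them among the 415 highest, and X shares of 10 to 12.4%. The count of members high in both replicates was 10 to 14 under other matches, against 12, and rho 0.311 with matches within 200 bp and 0.490 within 50 bp. Of 19 lists with X genes, 12 had another count of genes with a member, by over 1.5 times, at 250 bp, and 10 at 1000 bp. The cause of these changes was not tested beyond the smaller or larger numbers each choice leaves. Midpoints gave the same values because every member's summit is at its region's centre. No paired analysis was possible because there is 1 group and no fit. Depth in reads is unknown, so no interval covers it.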
